A study of Mus musculus with 59 samples.

Results

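The genes described are 10 members of the Krüppel-like factor (KLF) family, Klf2, Klf3, Klf4, Klf6, Klf7, Klf9, Klf10, Klf13, Klf15 and Klf16, of 21935 genes in a table of read counts. They were chosen by symbol, with earlier results of these data known, and each symbol matched 1 Ensembl gene. The counts come from 59 libraries of polyA RNA from C57BL/6 mice that received an intraperitoneal injection of IP118/PY115, which the series title presents as acting on both PYY and GLP-1 receptors, or of vehicle. Tissue was taken 4 h after the injection. Laser capture took 4 mm² from 10 µm sections of each of 3 brain regions. In the hypothalamus they were the paraventricular nucleus (PVN, 10 treated and 10 vehicle libraries) and the arcuate nucleus (ARC, 10 treated and 9 vehicle), and in the brainstem the solitary tract nucleus (NTS, 10 treated and 10 vehicle). The labels give no dose, age, sex or diet, although the title speaks of obese-diabetic mice, and do not tie libraries to animals, so a p-value for a difference between regions takes libraries of shared animals as independent.

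KLF proteins are transcription factors that bind GC-rich DNA and CACCC boxes through zinc fingers at the C-terminal end, and differ in the cofactors that their N-terminal parts recruit. Klf9, Klf13 and Klf16 belong to a branch that recruits the Sin3 corepressor complex, and Klf3 recruits the CtBP corepressors. Klf2 and Klf4 are best known from vascular endothelium, Klf6 and Klf7 from growth and axon extension, Klf10 as a gene induced by TGF-beta, and Klf9 and Klf15 as genes induced by glucocorticoids. Klf9, Klf10 and Klf15 are also known to follow the circadian clock in other tissues.

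Library totals ran from 3964093 to 28510118 counts, with a median of 10717483. No KLF gene was at 0 in any library, and the lowest count, of Klf4, was 6. All 10 passed the filter on low counts in every fit. Within each group, libraries are numbered in the order of deposition, and the libraries numbered 1 stood apart. In all 3 regions, treated library 1 was the lowest of its group for Klf9, Klf13 and Klf15, and vehicle library 1 was the highest of its group for the same 3 genes. Those 6 libraries thus lay toward the other group in each region, though not always within the range of its other libraries. Counts of genes called for treatment are therefore given with all libraries under their labels and again without the libraries numbered 1. Values in both sets are given for each KLF gene that edgeR called in either. Whether these 6 libraries carry the label of their own group was not tested, and a wrong label there would bear on every treatment value. The second set of p-values is too small, since those libraries were picked after their values were seen. For Klf9, Klf13 and Klf15 a lack of overlap between the groups in that set is favoured for the same reason. Marker genes matched the PVN and ARC labels: all 5 PVN markers were higher in PVN than in ARC in vehicle libraries, and all 4 ARC markers were lower.

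Levels are CPM, counts relative to the TMM-scaled library total, and levels of different genes are compared per kilobase of annotated exon. In vehicle libraries Klf9 had the highest level per kilobase in PVN, at 14.2 ± 2.2 (SD, n = 10), and in NTS, at 16.7 ± 2.53 (SD, n = 10). In ARC, Klf6 at 12.2 ± 1.59 and Klf9 at 11.5 ± 1.95 CPM per kilobase (SD, n = 9 each) differed by less than their spread. Klf15 came next in NTS, at 12.5 ± 1.17 CPM per kilobase. The lowest levels per kilobase belonged to Klf3 in PVN (1.82 ± 0.33) and to Klf4 in ARC (1.01 ± 0.39) and NTS (1.13 ± 0.58). Klf9 exceeded 77.0% of all genes in the joint fit in NTS by this measure, and Klf4 exceeded 17.6%. In bulk tissue, fewer cells of a type and less RNA per cell cannot be told apart.

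**Figure D1:**
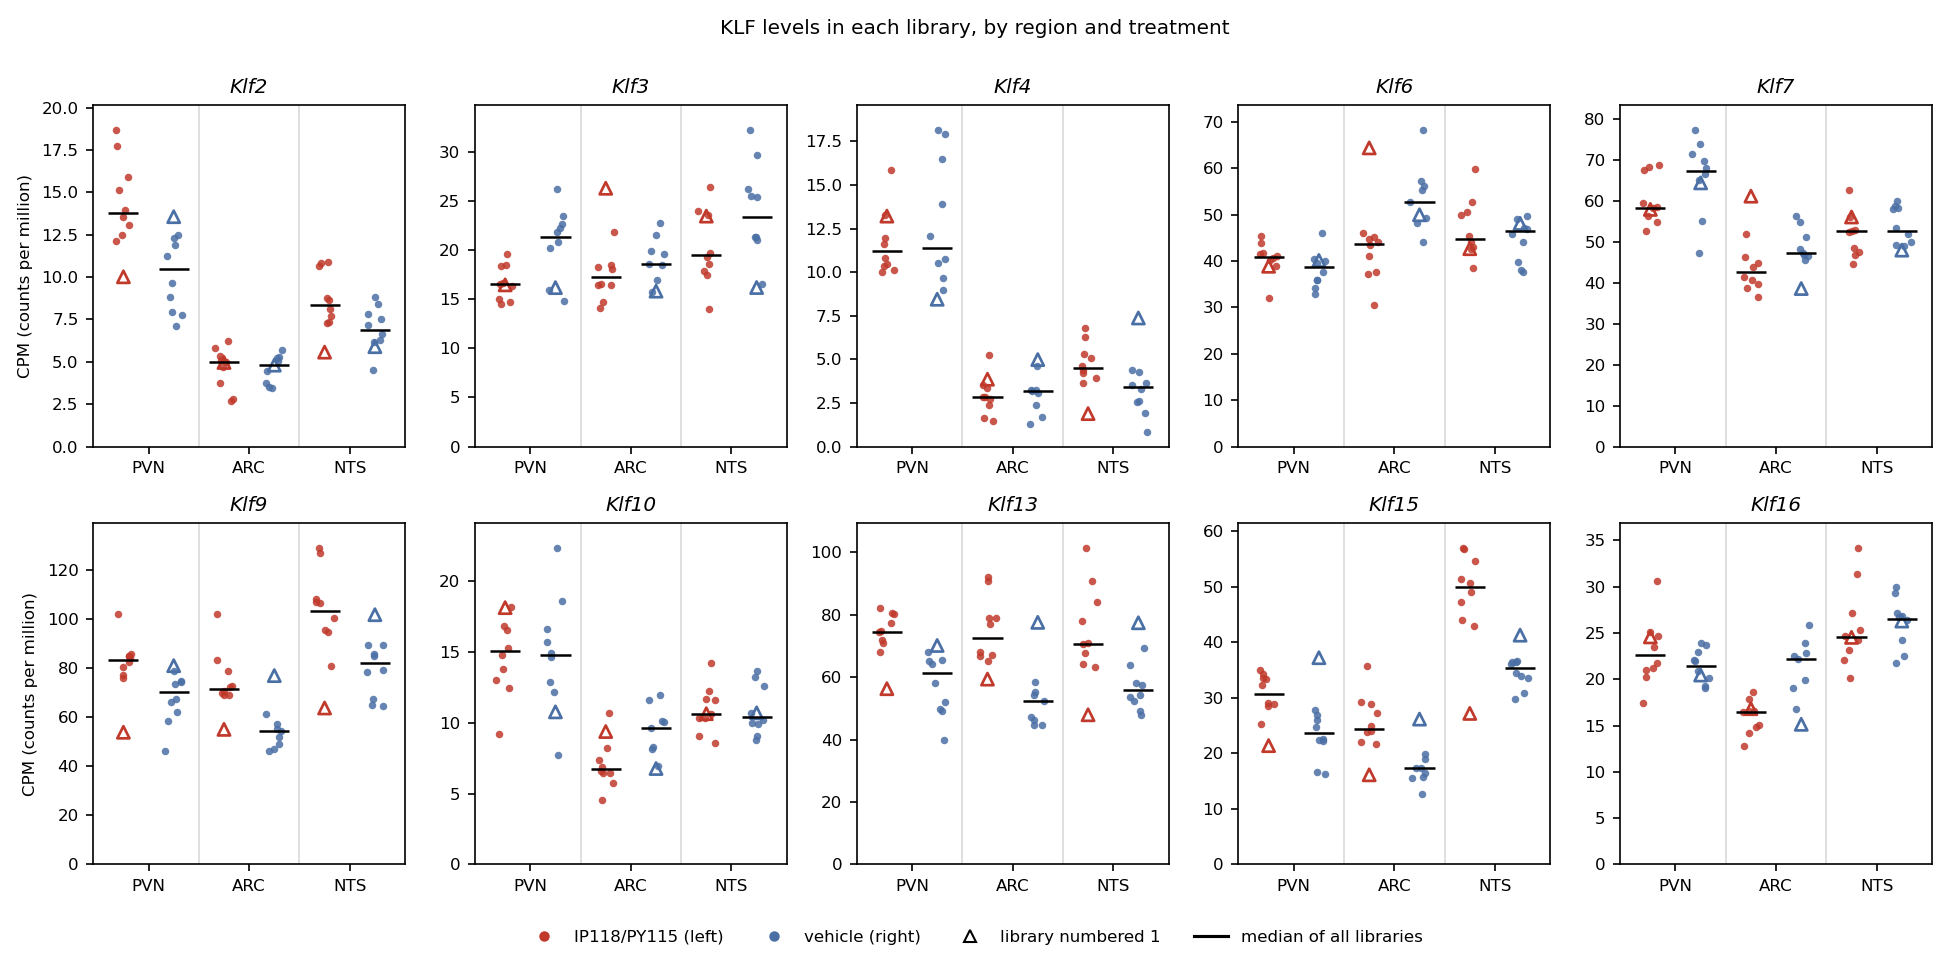
CPM (y axis, from 0) of each KLF gene in each of the 59 libraries, by region (x axis), with IP118/PY115 libraries in red on the left and vehicle libraries in blue on the right. Bars are medians, and open triangles are the libraries numbered 1, which lie low in the treated and high in the vehicle groups for Klf9, Klf13 and Klf15.

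The first question was whether KLF mRNA differed 4 h after IP118/PY115. With all libraries under their labels, edgeR's quasi-likelihood test called 0 of the 10 KLF genes in PVN, ARC or NTS at an adjusted p (FDR) under 0.05. Over all genes tested it called 0.656% in PVN, 0.0% in ARC and 0.0% in NTS. At an unadjusted p under 0.05 there were 5 KLF genes in PVN, 6 in ARC and 4 in NTS, against 1253 of 13409 genes tested in PVN, 971 of 13484 in ARC and 795 of 13696 in NTS. For the 10 genes the median absolute log2 fold change was 0.19 in PVN, 0.33 in ARC and 0.26 in NTS, against 0.07, 0.07 and 0.06 over all genes tested. DESeq2 called 2 KLF genes in PVN (1.56% of all genes), 4 in ARC (0.438%) and 1 in NTS (0.482%). limma-voom with library weights called 4 in PVN (3.79% of all genes), 0 in ARC (0.0371%) and 1 in NTS (0.139%). Without the libraries numbered 1, edgeR called 4 KLF genes in PVN, 5 in ARC and 3 in NTS, against 3.22%, 1.14% and 1.18% of all genes. Klf9, Klf13 and Klf15 were called higher in all 3 regions in that set. The 10 genes were chosen with earlier results of these data known. Comparisons of their effects and calls with those of all genes are therefore no independent evidence of a family response.

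**Figure D2:**
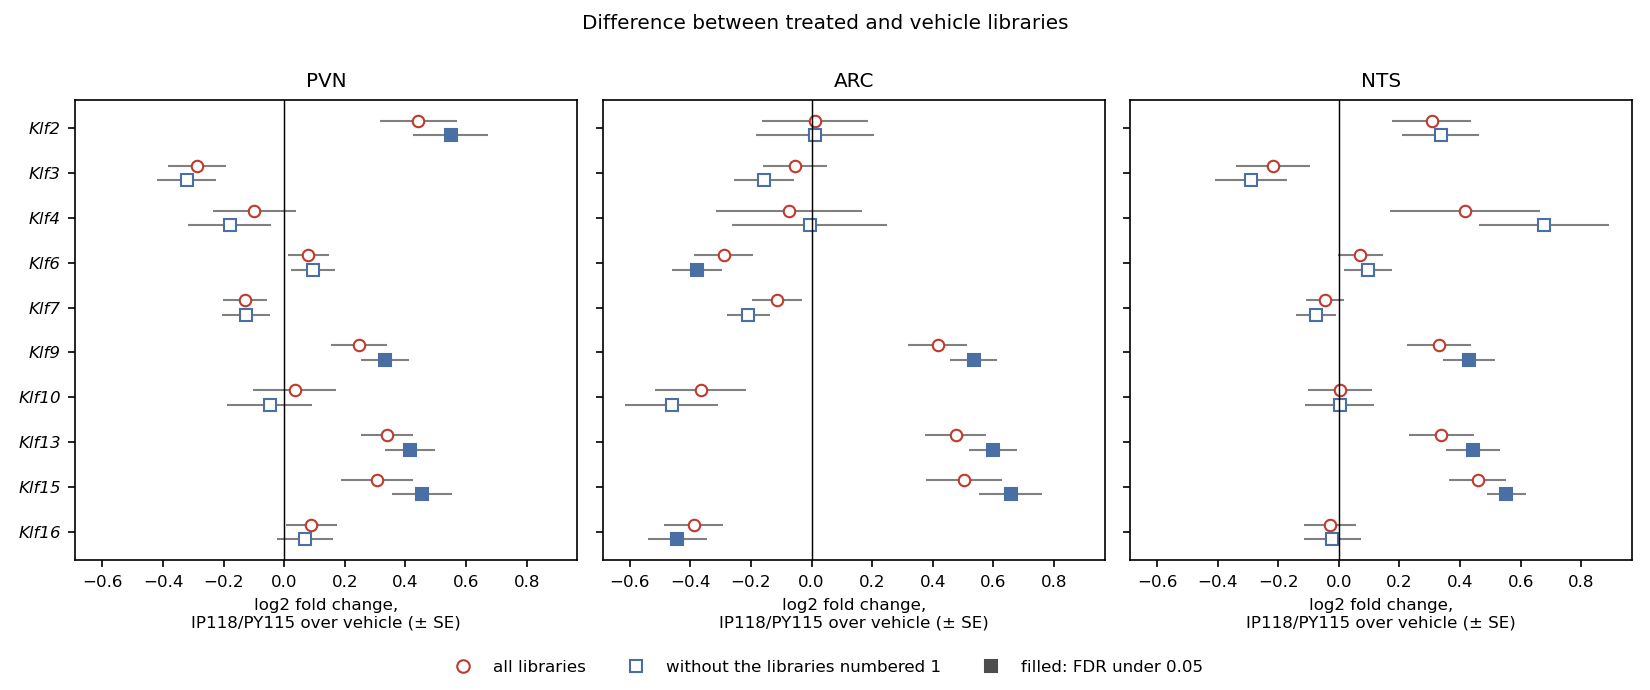
Log2 fold change of IP118/PY115 over vehicle (x axis, bars ± SE) for each KLF gene (rows) in PVN, ARC and NTS. Red circles use all libraries and blue squares leave out the libraries numbered 1; filled symbols have an FDR under 0.05. Every red circle is open, and the squares of Klf9, Klf13 and Klf15 are filled in each region.

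Klf9, Klf13 and Klf15 had positive treatment log2 fold changes in all 3 regions. None passed edgeR's test with all libraries, while DESeq2 called Klf13 in PVN, all 3 genes in ARC and Klf15 in NTS, and limma-voom called Klf13 and Klf15 in PVN and Klf15 in NTS. Klf9 (chr19:23141226-23168134, plus strand, GRCm38) encodes a repressor known to be induced by glucocorticoids and thyroid hormone and to restrain neural stem cell activity. In PVN its lowest, median and highest levels were 53.8, 83.3 and 102 CPM in treated libraries, and 46.1, 70.4 and 80.9 CPM in vehicle libraries. Treated library 1 was the lowest treated value, the other 9 lay at 75.9 CPM or above, and the groups overlapped. In ARC it had 55, 71.5 and 102 CPM in treated libraries, and 46.4, 54.4 and 76.9 CPM in vehicle libraries. In NTS it had 63.7, 103 and 129 CPM in treated libraries, and 64.5, 82.0 and 102 CPM in vehicle libraries. All 10 treated ARC libraries lay above the vehicle median, as did 9 of 10 in PVN and 8 of 10 in NTS. The log2 fold changes were 0.25 ± 0.09 (SE) in PVN (FDR = 0.321), 0.42 ± 0.10 in ARC (FDR = 0.134) and 0.33 ± 0.11 in NTS (FDR = 0.368). Leaving out the libraries numbered 1 gave 0.33 ± 0.08 (FDR = 0.0145), 0.54 ± 0.08 (FDR = 0.000138) and 0.43 ± 0.09 (FDR = 0.00609). In ARC the groups did not then overlap, with 68.8 to 102 CPM in 9 treated and 46.4 to 61.3 CPM in 8 vehicle libraries. Over all genes 0.274% showed no overlap in ARC without those libraries. The omitted libraries held the lowest treated and the highest vehicle Klf9 value, so that share is no even measure for Klf9.

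Klf13 (chr7:63886351-63938915, minus strand), a close relative of Klf9 in the Sin3-recruiting branch, differed by a like amount. Its lowest, median and highest levels in PVN were 56.3, 74.5 and 82.2 CPM in treated libraries, and 39.8, 61.2 and 70.1 CPM in vehicle libraries. In ARC they were 59.3, 72.6 and 92.1 CPM in treated libraries, and 44.5, 52.2 and 77.5 CPM in vehicle libraries. In NTS they were 47.9, 70.6 and 101 CPM in treated libraries, and 47.8, 55.9 and 77.4 CPM in vehicle libraries. In each region the lowest treated and the highest vehicle value were those of the libraries numbered 1. The log2 fold changes were 0.34 ± 0.09 in PVN (FDR = 0.066), 0.48 ± 0.10 in ARC (FDR = 0.0896) and 0.34 ± 0.11 in NTS (FDR = 0.373). With those libraries left out they were 0.41 ± 0.08 (FDR = 0.00253), 0.60 ± 0.08 (FDR = 2.8e-05) and 0.44 ± 0.09 (FDR = 0.00721). The gene E030018B13Rik overlaps Klf13, and the strand setting of the counting is not given in the sources used here, so reads of the overlap cannot be told apart.

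Klf15 (chr6:90462576-90475238, plus strand), known as a glucocorticoid target and as a regulator of amino acid and glucose metabolism in liver and muscle, had its highest levels in NTS. There it had 27.2, 49.9 and 56.9 CPM (lowest, median, highest) in treated libraries, and 29.8, 35.3 and 41.3 CPM in vehicle libraries. Apart from treated library 1, the treated libraries lay between 42.9 and 56.9 CPM, above every vehicle library. In PVN it had 21.4, 30.7 and 34.9 CPM in treated libraries, and 16.3, 23.7 and 37.2 CPM in vehicle libraries. In ARC it had 16.1, 24.4 and 35.7 CPM in treated libraries, and 12.6, 17.3 and 26.2 CPM in vehicle libraries. In each region, 9 of 10 treated libraries lay above the vehicle median. The log2 fold changes were 0.46 ± 0.09 in NTS (FDR = 0.0983), 0.31 ± 0.12 in PVN (FDR = 0.339) and 0.50 ± 0.12 in ARC (FDR = 0.151). In NTS DESeq2 gave an FDR of 0.00306 and limma-voom one of 0.0401, and edgeR with endothelial and oligodendrocyte marker scores as covariates gave 0.0311. Without the libraries numbered 1 the values were 0.55 ± 0.07 in NTS (FDR = 8.03e-06), 0.46 ± 0.10 in PVN (FDR = 0.00669) and 0.66 ± 0.10 in ARC (FDR = 0.000375). The groups then did not overlap in NTS and ARC, where 0.424% and 0.274% of all genes showed no overlap. The omitted libraries held the lowest treated and the highest vehicle Klf15 values, so those shares are no even measure for Klf15. Of 4 tested genes of amino acid catabolism and glucose uptake linked to Klf15 in other tissues, 0 were called in any region, and 1 was higher in PVN, 3 in ARC and 1 in NTS.

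A single library moved these calls. Leaving out vehicle library 1 alone, edgeR called Klf2, Klf13 and Klf15 in PVN, Klf9, Klf13, Klf15 and Klf16 in ARC, and Klf15 in NTS. Leaving out treated library 1 alone, it called Klf2, Klf9 and Klf13 in PVN, Klf6, Klf9, Klf13 and Klf15 in ARC, and Klf9 and Klf15 in NTS. The share of all genes called in these fits is not given here. Without both libraries it rose from 0.656% to 3.22% in PVN, and from 0.0% to 1.14% in ARC and 1.18% in NTS. A general rise in calls therefore cannot be told apart. Over the 59 fits without 1 library each, the log2 fold change of Klf15 stayed between 0.26 and 0.41 in PVN, 0.44 and 0.59 in ARC and 0.43 and 0.53 in NTS. That of Klf13 stayed between 0.29 and 0.38, 0.44 and 0.56, and 0.28 and 0.39 in the same order of regions, and that of Klf9 between 0.20 and 0.30, 0.36 and 0.49, and 0.29 and 0.39. The libraries titled 5553 to 5557 are all vehicle, numbers 8 to 10 of PVN and 8 and 9 of ARC. Without them Klf9 in PVN no longer had an unadjusted edgeR p under 0.05, while Klf13 and Klf15 did. In ARC all 3 genes kept one.

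The levels of these 3 genes were also compared from library to library. After subtraction of the mean of each of the 6 groups, log2 CPM of Klf9 and Klf13 had a Pearson r of 0.82 over the 59 libraries, the highest of the 45 pairs of KLF genes. Klf9 and Klf15 had r = 0.61, and Klf13 and Klf15 had r = 0.50. Over the libraries not numbered 1 these were 0.68, 0.24 and 0.07, so that the r of Klf15 with either gene was low outside those libraries. The lowest r was that of Klf7 with Klf15, at -0.47 with all libraries and -0.36 without those numbered 1. The points share libraries, and with them depth, tissue composition and the animals, and no test was made.

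**Figure D3:**
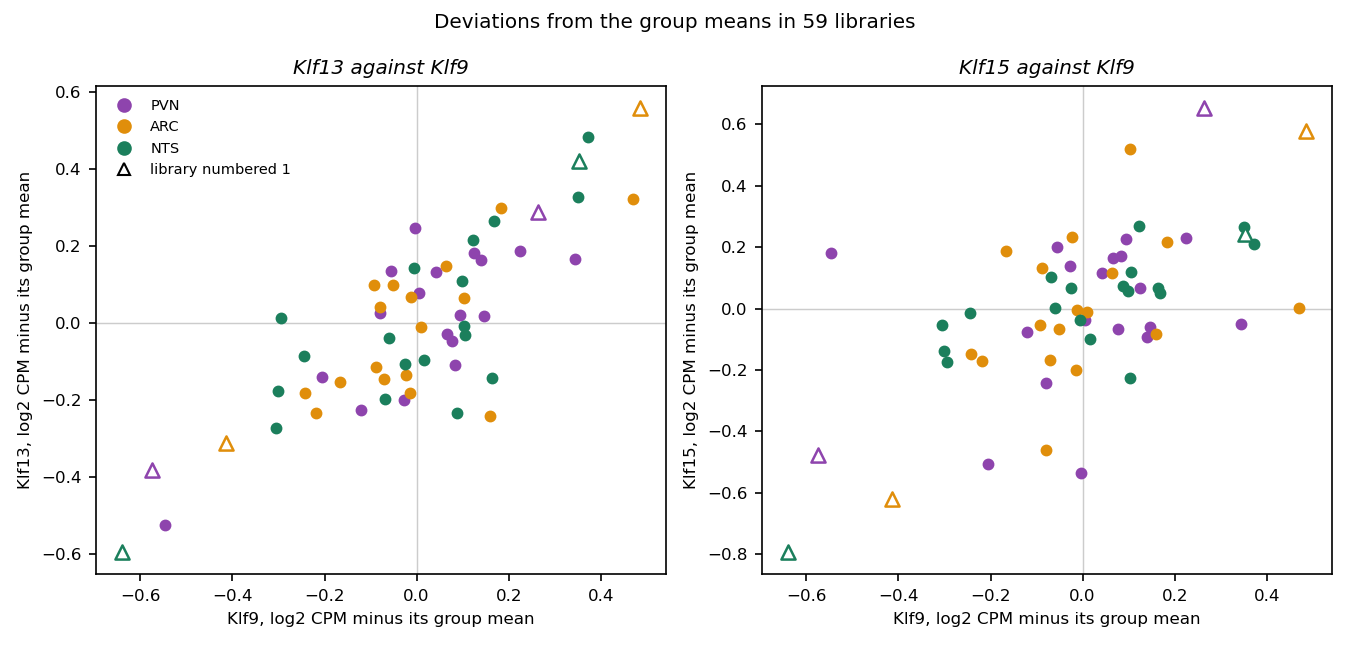
Deviation of log2 CPM from the group mean in each of 59 libraries, for Klf13 (left) and Klf15 (right) on the y axis against Klf9 on the x axis, coloured by region. Triangles are the libraries numbered 1, which lie at both ends; Klf13 follows Klf9 among the other libraries too (r = 0.68), and Klf15 less so (r = 0.24).

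The promoters of these 3 genes are shown because edgeR called all 3 higher in each region without the libraries numbered 1. Those libraries were picked after the values of the same 3 genes were seen, and with all libraries edgeR called none of them. The choice is therefore no evidence that the 3 genes form a group. RefSeq lists promoters for 8 of the 10 genes, and the 250 bases before the start of Klf9 lie at chr19:23140976-23141225 on the plus strand, those of Klf13 at chr7:63938916-63939165 on the minus strand, and those of Klf15 at chr6:90462326-90462575 on the plus strand (GRCm38.p6). Capitals mark matches on either strand to the GC box GGGCGG, the CACCC box CACCC, the short cAMP response motif TGACG, the E box CACGTG and the CCAAT box CCAAT, and neighbouring matches can overlap, as the GC and CACCC boxes of Klf13 do.
Klf9: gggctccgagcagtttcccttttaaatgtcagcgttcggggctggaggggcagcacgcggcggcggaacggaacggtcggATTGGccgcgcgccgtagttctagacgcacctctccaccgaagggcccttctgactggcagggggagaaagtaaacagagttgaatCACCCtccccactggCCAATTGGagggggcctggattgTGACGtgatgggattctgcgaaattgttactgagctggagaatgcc
Klf13: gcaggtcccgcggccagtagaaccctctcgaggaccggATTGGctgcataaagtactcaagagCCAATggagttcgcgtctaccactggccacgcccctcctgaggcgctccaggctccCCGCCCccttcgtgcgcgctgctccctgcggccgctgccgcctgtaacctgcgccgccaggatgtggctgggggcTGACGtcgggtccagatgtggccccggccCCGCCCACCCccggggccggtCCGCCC
Klf15: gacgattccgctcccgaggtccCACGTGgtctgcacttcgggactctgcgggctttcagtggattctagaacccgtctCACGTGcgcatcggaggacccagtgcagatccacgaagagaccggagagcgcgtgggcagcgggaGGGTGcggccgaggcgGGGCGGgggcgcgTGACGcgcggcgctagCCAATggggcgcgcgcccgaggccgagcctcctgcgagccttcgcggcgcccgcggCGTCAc

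All 3 hold at least 1 TGACG, 46 bases before the start in Klf9, 56 in Klf13, and 78 and 6 in Klf15, a match found in 17.8% of 32851 mouse promoters of the same length. The match is not particular to the 3 genes shown, since the promoters of Klf2 and Klf4 hold it too, 241 and 232 bases before the start. All 3 hold CCAAT boxes, with 3 matches in Klf9, 2 in Klf13 and 1 in Klf15, against 33.9% of promoters with any. Klf6 holds more, with 4 matches. Klf15 holds 2 E boxes, the letters bound by clock and other bHLH factors, 228 and 172 bases before the start, and Klf9 and Klf13 hold 0. Klf4 and Klf6 hold 1 each, and 6.02% of all promoters hold one. The short glucocorticoid receptor motif AGAACA, present in 16.1% of promoters, was in none of the 8 KLF promoters, and neither was TATAAA, present in 12.4%. The full element TGACGTCA, present in 1.55%, was in none of the 3 shown. There were 3 GC boxes in Klf13, 1 in Klf15 and 0 in Klf9, with 32.7% of promoters holding one, and each of the 3 held 1 CACCC box, as 52% do. GC content of the 250 bases was 59.6% in Klf9, 71.6% in Klf13 and 72.0% in Klf15, against a median of 52.4% over all promoters. Matches are letters only and were not tested for binding.

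Klf2 (chr8:72319033-72321656, plus strand), an endothelial factor known to respond to shear stress and, in T cells, to hold cells in quiescence, was higher in treated PVN libraries without passing edgeR's test. Its lowest, median and highest levels in PVN were 10.0, 13.8 and 18.7 CPM in treated libraries, and 7.11, 10.5 and 13.6 CPM in vehicle libraries. The libraries numbered 1 again gave the lowest treated and the highest vehicle value, and 9 of 10 treated libraries lay above the vehicle median. The log2 fold change was 0.44 ± 0.13 (FDR = 0.121) with all libraries and 0.55 ± 0.12 (FDR = 0.00837) without those numbered 1; DESeq2 gave an FDR of 0.0445 and limma-voom one of 0.0368. In NTS it had 5.57, 8.37 and 10.9 CPM in treated libraries, and 4.54, 6.91 and 8.81 CPM in vehicle libraries, with a log2 fold change of 0.31 ± 0.13 (FDR = 0.721). In ARC it had 2.71, 4.97 and 6.25 CPM in treated libraries, and 3.44, 4.81 and 5.72 CPM in vehicle libraries, with a log2 fold change of 0.01 ± 0.18 (FDR = 0.993).

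The 15 endothelial markers were set beside Klf2 in PVN. Their summed level was 567 to 690 CPM in treated and 547 to 760 CPM in vehicle PVN libraries, 0 of 15 were called, and their median log2 fold change was -0.01. Of 4 tested endothelial targets of Klf2 and Klf4, 0 were called in any region, and S1pr1, a sphingosine phosphate receptor, averaged 83.5 ± 3.14 CPM in treated and 87.6 ± 10.1 CPM in vehicle PVN libraries (SD, n = 10 each). Klf4 (chr4:55527143-55532466, minus strand), a factor of endothelium and of pluripotent cells, was low and variable: in NTS it had 1.89, 4.51 and 6.79 CPM in treated libraries, and 0.839, 3.42 and 7.37 CPM in vehicle libraries. Its treatment log2 fold changes were -0.10 ± 0.14 in PVN (FDR = 0.894), -0.07 ± 0.24 in ARC (FDR = 0.973) and 0.42 ± 0.25 in NTS (FDR = 0.999). Its SE in ARC and NTS is larger than for any other of the 10 genes, at counts that go down to 6.

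Klf6, an activator with roles in growth control and axon regrowth, and Klf16, a Sin3-recruiting repressor, were lower in treated ARC libraries, again without passing edgeR's test with all libraries. Klf16 had 12.8, 16.5 and 18.6 CPM (lowest, median, highest) in treated ARC libraries, and 15.1, 22.2 and 25.9 CPM in vehicle ARC libraries. All 10 treated libraries lay below the vehicle median, and vehicle library 1 had the lowest vehicle value. Its log2 fold change there was -0.39 ± 0.10 (FDR = 0.154), -0.44 ± 0.10 without the libraries numbered 1 (FDR = 0.0141) and -0.38 ± 0.10 by DESeq2 (FDR = 0.042). Klf6 had 30.6, 43.8 and 64.4 CPM in treated ARC libraries, and 44.2, 52.7 and 68.2 CPM in vehicle ARC libraries. Treated library 1 was the highest treated value, and the other 9 lay at 46.1 CPM or below. Its log2 fold change there was -0.29 ± 0.10 (FDR = 0.382), and -0.38 ± 0.08 without the libraries numbered 1 (FDR = 0.0143). In PVN and NTS the log2 fold changes were 0.08 ± 0.07 and 0.07 ± 0.07 for Klf6, and 0.09 ± 0.09 and -0.03 ± 0.09 for Klf16.

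Klf3, Klf7 and Klf10 were called in no region by edgeR, with or without the libraries numbered 1. Klf3, the CtBP-recruiting repressor, had 14.5, 16.5 and 19.6 CPM in treated PVN libraries, and 14.9, 21.4 and 26.3 CPM in vehicle PVN libraries. All 10 treated libraries lay below the vehicle median, and its log2 fold change was -0.29 ± 0.10 (FDR = 0.21; limma-voom FDR = 0.0109). In ARC and NTS it was -0.05 ± 0.11 and -0.22 ± 0.12. Klf10, the TGF-beta-induced repressor, had 4.51, 6.72 and 10.7 CPM in treated ARC libraries, and 6.76, 9.59 and 12 CPM in vehicle ARC libraries, a log2 fold change of -0.37 ± 0.15 (FDR = 0.566). In PVN and NTS its values were 0.03 ± 0.14 and 0.00 ± 0.11. Klf7, a neuronal factor needed for axon growth, had log2 fold changes of -0.13 ± 0.07 in PVN, -0.12 ± 0.08 in ARC and -0.05 ± 0.06 in NTS. Of 9 tested TGF-beta pathway genes, 0 were called in any region, and the smallest p among them was that of Tgfb3, a TGF-beta ligand, in ARC, with a log2 fold change of 0.49 ± 0.13 (FDR = 0.187). Tgfb3 was called higher in ARC without the libraries numbered 1, and 0 others were.

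Other gene groups were set beside the KLF genes in the same fits. Of 18 known glucocorticoid-responsive genes outside the family, 17 were higher in treated PVN, 18 in treated ARC and 18 in treated NTS libraries, with median log2 fold changes of 0.45, 0.62 and 0.61. With all libraries 3 passed in PVN and 0 in ARC and NTS. They were Zbtb16, a zinc finger repressor (log2 fold change 1.13 ± 0.19, FDR = 0.0149), Map3k6, a stress kinase (0.90 ± 0.17, FDR = 0.0225), and Fkbp5, a chaperone of the glucocorticoid receptor (0.65 ± 0.15, FDR = 0.045). Leaving out those numbered 1, 14 were called higher in PVN, 11 in ARC and 17 in NTS. Of the immediate early genes, 13 of 17 were higher in PVN, 16 of 18 in ARC and 19 of 19 in NTS, and 0 were called with all libraries; Egr4 in NTS had a log2 fold change of 2.46 ± 0.47 (FDR = 0.0983). Leaving out the same libraries, 4 were called in PVN (Fosb, Fosl2, Maff and Arc), 2 in ARC (Fosl2 and Csrnp1) and 13 in NTS, Fos, Egr1 and Nr4a1 among them, all higher. Of 16 clock and clock output genes, 5 were higher in PVN, 6 in ARC and 11 in NTS, with 0 called; Nr1d1, a repressor in the clock loop, averaged 66.8 ± 7.11 CPM in treated and 83.7 ± 13 CPM in vehicle PVN libraries (SD, n = 10 each; FDR = 0.0648). In the smaller set 5 clock genes were called lower in PVN (Nr1d1, Dbp, Tef, Hlf and Bhlhe40), 2 lower and 1 higher in ARC, and Per2 higher in NTS. Of 10 KLF corepressors and coactivators, 0 were called in any region in either set. The glucocorticoid list was written with earlier results of these data known and is no independent evidence of its direction.

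Of the endothelial, mural, oligodendrocyte, astrocyte, microglia and neuron markers, 0 were called for treatment in any region with all libraries. Without the libraries numbered 1, Kdr and Sox9 were called lower in PVN, Cx3cr1 lower in ARC, Sox9 and Pdgfrb lower in NTS, and Ly6c1 and Gjb6 higher in NTS. Among these lists the largest median was that of mature oligodendrocytes in ARC, where 11 of 11 markers were higher in treated libraries with a median log2 fold change of 1.01 and 0 called, and their summed level was 507 to 6040 CPM in treated and 494 to 1350 CPM in vehicle libraries. With oligodendrocyte and endothelial scores as covariates edgeR also called 0 KLF genes in ARC, and the part of these cells in the ARC values was not tested further. All 5 red blood cell genes were higher in treated libraries of each region, with median log2 fold changes of 0.41 in PVN, 0.27 in ARC and 0.24 in NTS, with 0 called.

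The second question was whether a treatment difference in 1 region differed from that in another. In the joint fit of all 59 libraries edgeR called 0 of the 10 KLF genes between PVN and ARC, between PVN and NTS or between ARC and NTS, against 0.0487%, 0.0904% and 0.0% of all genes. DESeq2 also called 0, and at an unadjusted p under 0.05 there were 4, 0 and 2 KLF genes by edgeR, against 893, 616 and 540 of all 14379. The difference nearest to the threshold was that of Klf16, whose effect was higher in PVN than in ARC by 0.48 ± 0.13 on the log2 scale (FDR = 0.182). Klf6 followed, higher in PVN than in ARC by 0.37 ± 0.12 (FDR = 0.463). Without the libraries numbered 1, Klf6 alone was called, with 0.47 ± 0.12 for PVN against ARC (FDR = 0.0395; 0.362% of all genes called) and -0.48 ± 0.11 for ARC against NTS (FDR = 0.0382; 0.244% of all genes called). For Klf9, Klf13 and Klf15 the interaction log2 values with all libraries lay between -0.20 and 0.14, with SE of 0.15 to 0.17 and FDR of 0.925 or more, so a difference between regions was not detectable for them.

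The third question was where in these regions each gene was most expressed. Between PVN and ARC the largest differences among the 10 genes were those of Klf4 and Klf2, both known from endothelium. Klf4 had 10.0, 11.2 and 15.8 CPM (lowest, median, highest) in treated PVN libraries, 1.48, 2.83 and 5.26 in treated ARC libraries, and 1.89, 4.51 and 6.79 in treated NTS libraries. It had 8.44, 11.4 and 18.1 CPM in vehicle PVN libraries, 1.32, 3.16 and 4.98 in vehicle ARC libraries, and 0.839, 3.42 and 7.37 in vehicle NTS libraries. Every PVN library lay above every ARC and NTS library of either treatment. The share of all genes separated in this way between regions is not given here, so the separation is not read as particular to Klf4. Its log2 fold change for PVN over ARC was 1.97 ± 0.21 in treated libraries (FDR = 2.97e-12) and 2.00 ± 0.22 in vehicle libraries (FDR = 1.33e-11). Over NTS it was 1.34 ± 0.20 in treated (FDR = 4.94e-08) and 1.86 ± 0.21 in vehicle libraries (FDR = 1.61e-11). Klf2 was higher in PVN than in ARC by 1.61 ± 0.14 in treated (FDR = 6.56e-16) and 1.17 ± 0.15 in vehicle libraries (FDR = 6.13e-10), and higher than in NTS by 0.72 ± 0.13 in treated (FDR = 3.46e-06) and 0.58 ± 0.14 in vehicle libraries (FDR = 0.000261).

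Endothelial markers were also highest in PVN. In vehicle libraries all 15 were called higher in PVN than in ARC, with a median log2 fold change of 1.82, and all 15 higher in PVN than in NTS, with a median of 1.06. Their summed level ran from 547 to 760 CPM in vehicle PVN, from 150 to 217 CPM in vehicle ARC and from 268 to 364 CPM in vehicle NTS libraries. All 15 were called lower in vehicle ARC than in vehicle NTS, with a median log2 fold change of -0.84. Klf2 was called lower there too, and Klf4 was not called. In treated libraries both Klf2 and Klf4 were called lower in ARC than in NTS. All 8 mural cell markers were also called higher in vehicle PVN than in vehicle ARC. Over vehicle NTS, 3 of the 8 were called higher in vehicle PVN and 0 lower, with a median log2 fold change of 0.325. The part of vessel content in the Klf2 and Klf4 differences was not tested.

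**Figure D4:**
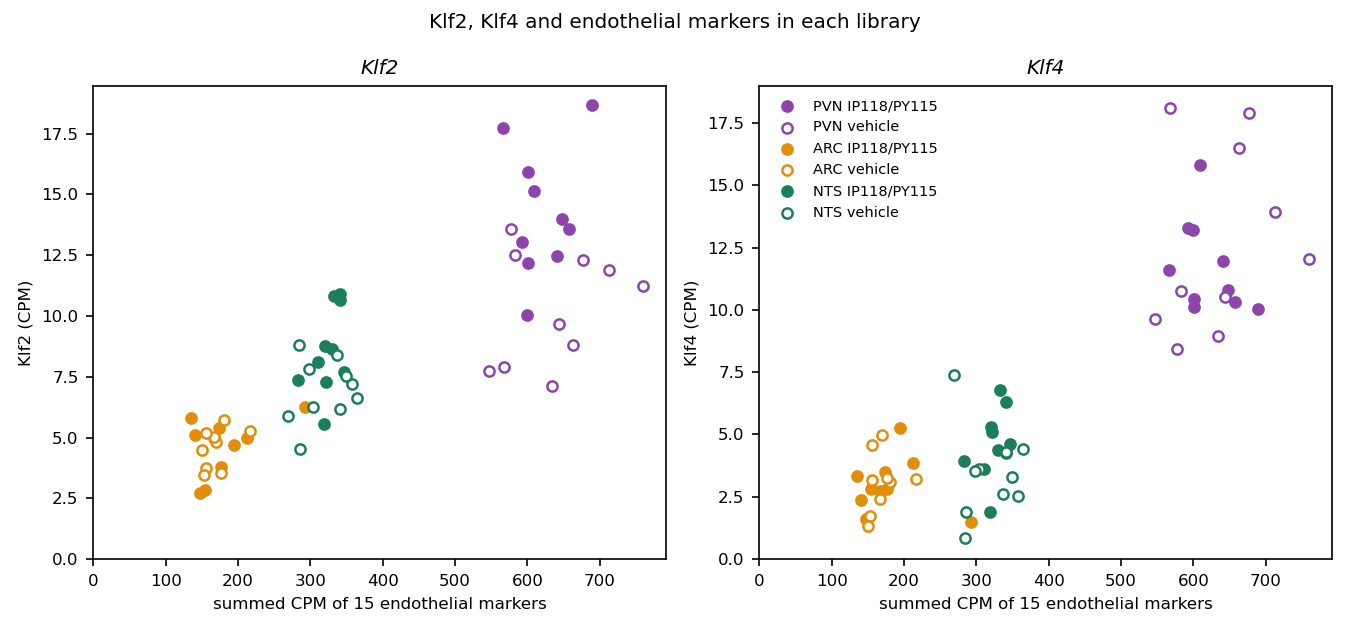
Klf2 (left) and Klf4 (right) in CPM on the y axis against the summed CPM of 15 endothelial markers on the x axis, 1 point per library, filled for IP118/PY115 and open for vehicle. PVN libraries lie at 547 CPM of the markers and above and hold the highest Klf2 and Klf4 levels. In Klf2 the PVN and NTS libraries overlap, since PVN libraries go down to 7.11 CPM and NTS libraries reach 10.9 CPM. ARC libraries lie below all NTS libraries in the markers, except treated ARC library 2 at 293 CPM. NTS and ARC libraries overlap in Klf2 and in Klf4.

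Klf15 and Klf9 were highest in NTS. Klf15 had log2 fold changes for ARC over NTS of -0.93 ± 0.12 in treated (FDR = 2.94e-10) and -0.97 ± 0.12 in vehicle libraries (FDR = 6.28e-10). The PVN over NTS values were -0.68 ± 0.12 in treated (FDR = 9.07e-07) and -0.52 ± 0.12 in vehicle libraries (FDR = 0.000164). Klf9 had log2 fold changes for ARC over NTS of -0.45 ± 0.10 in treated (FDR = 0.000122) and -0.53 ± 0.11 in vehicle libraries (FDR = 2.06e-05). Its PVN over NTS difference was called in treated libraries (-0.32 ± 0.10, FDR = 0.00559) and just missed the threshold in vehicle libraries (-0.23 ± 0.10, FDR = 0.0503). Astrocyte markers had the same order: all 11 were called lower in ARC than in NTS in vehicle libraries, with a median log2 fold change of -1.71, and 10 of 11 lower in PVN than in NTS. Their part, and that of oligodendrocyte markers, of which 11 of 11 were lower in both hypothalamic regions, was not tested. Klf13 was called in none of the 6 contrasts between regions.

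The remaining genes differed between some pairs of regions. Klf7 was higher in PVN, with log2 fold changes over ARC of 0.43 ± 0.08 in treated (FDR = 1.66e-06) and 0.45 ± 0.08 in vehicle libraries (FDR = 1.84e-06), and over NTS of 0.21 ± 0.07 in treated (FDR = 0.012) and 0.30 ± 0.08 in vehicle libraries (FDR = 0.000534). Klf10 was higher in PVN than in ARC by 1.04 ± 0.13 in treated (FDR = 9.22e-10) and 0.65 ± 0.14 in vehicle libraries (FDR = 8.28e-05). Klf6 was called higher in ARC in vehicle libraries, and the treated contrasts did not pass. PVN over ARC gave -0.11 ± 0.08 in treated (FDR = 0.279) and -0.48 ± 0.09 in vehicle libraries (FDR = 3.54e-06), and ARC over NTS gave -0.11 ± 0.08 in treated (FDR = 0.251) and 0.25 ± 0.08 in vehicle libraries (FDR = 0.00687). Klf16 was called higher in PVN than in ARC in treated libraries, and the vehicle contrast did not pass, with a PVN over ARC value of 0.52 ± 0.09 in treated (FDR = 1.26e-06) and 0.04 ± 0.09 in vehicle libraries (FDR = 0.756). The difference between the treated and the vehicle contrast is the interaction given above, which did not pass for either gene with all libraries. Klf16 had its highest mean in NTS, with 26.1 CPM in vehicle NTS, 21.4 CPM in vehicle PVN and 20.9 CPM in vehicle ARC libraries. It was called lower in PVN than in NTS in vehicle libraries only, and lower in ARC than in NTS in treated and in vehicle libraries. Klf3 was called lower in ARC than in NTS in vehicle libraries (-0.34 ± 0.11, FDR = 0.00879) and lower in PVN than in NTS in treated libraries (-0.30 ± 0.11, FDR = 0.018).

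Between PVN and ARC, edgeR called 5 of 10 KLF genes in treated libraries (48.7% of all genes) and 7 in vehicle libraries (46%). Between PVN and NTS it called 8 in treated (58.8% of all genes) and 7 in vehicle libraries (56.1%), and between ARC and NTS 7 in treated (63.8% of all genes) and 6 in vehicle libraries (61.7%). The shares over all genes are of like size, and nothing particular to the family is read from these counts. Called in treated and in vehicle libraries, and in the same direction, were 4 genes between PVN and ARC (Klf2, Klf4, Klf7, Klf10), 6 between PVN and NTS (Klf2, Klf4, Klf6, Klf7, Klf10, Klf15) and 4 between ARC and NTS (Klf2, Klf9, Klf15, Klf16). The treated and vehicle contrasts use different libraries and share the estimate of spread.

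**Figure D5:**
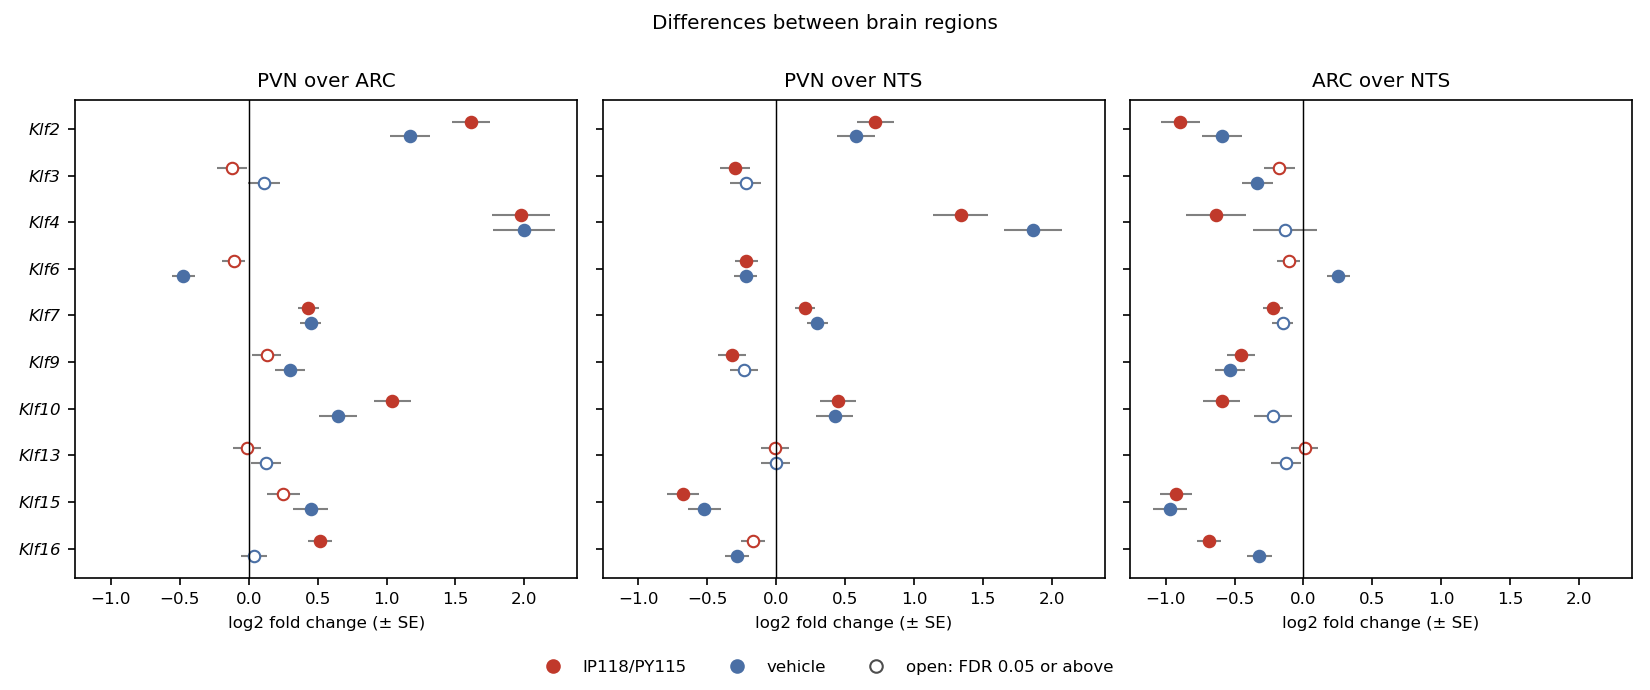
Log2 fold change between regions (x axis, bars ± SE) for each KLF gene (rows), with IP118/PY115 libraries in red above and vehicle libraries in blue below; open symbols have an FDR of 0.05 or above. Klf4 and Klf2 lie farthest to the right for PVN over ARC, Klf15 farthest to the left for ARC over NTS, and Klf16 and Klf2 differ most between the red and blue points for PVN over ARC.

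For each KLF gene, the 3 genes of 11709 whose deviations from the group means were most like its own over the 59 libraries were picked by Pearson r. Klf9 was most like Sgk1 (r = 0.86), Klf13 and Tsc22d3 (r = 0.78). Klf13 was most like Klf9, Sgk1 (r = 0.76) and Tsc22d3 (r = 0.73), and Klf15 was most like F3 (r = 0.81), Tsc22d3 (r = 0.76) and Mt2 (r = 0.74). With the libraries numbered 1 left out, r was 0.74 for Klf9 with Sgk1, 0.59 for Klf13 with Sgk1 and 0.56 for Klf15 with F3. In that set r with Tsc22d3 was 0.54 for Klf9, 0.49 for Klf13 and 0.45 for Klf15, and Klf15 with Mt2 had 0.47. None of the 3 genes named for Klf15 then kept a place among its first 3. Klf2 was most like Slfn5 (r = 0.62), Slc25a37 (r = 0.61) and Tns1 (r = 0.58). Klf3 was most like Slco1c1 (r = 0.69), Gramd3 (r = 0.69) and Kitl (r = 0.61), and Klf7 most like Ncam1 (r = 0.62), Usp49 (r = 0.58) and Rfx7 (r = 0.57). Klf6 was most like Rsf1 (r = 0.60), Unc5d (r = 0.60) and 9330159F19Rik (r = 0.59), and Klf10 most like Zfp995 (r = 0.57), Fut10 (r = 0.53) and Slit2 (r = 0.53). The lowest first places were those of Klf4, with Usp12 (r = 0.55), Fosl2 (r = 0.50) and Arhgef7 (r = 0.50), and of Klf16, with Shf (r = 0.54), Gse1 (r = 0.53) and Otud5 (r = 0.52). The points share libraries, and so depth and tissue composition.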

How the data were processed

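The authors deposited raw read counts per Ensembl gene for 59 libraries. Per the submitters' processing notes, reads were demultiplexed with bcl2fastq 2.20.0.422 and aligned to GRCm38 with STAR 2.5.2a, and per the labels' protocols RNA was made into libraries with a stranded mRNA kit. The counting program, its strand setting and the annotation are not given in the sources used here. Of 21935 IDs, 21858 were matched to a symbol in GENCODE M21, which also gave exon lengths. The labels do not say which libraries share an animal, so p-values measure the spread between libraries.

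Libraries were grouped by region and treatment, and numbered in the order of deposition, which pairs nothing. In R 4.3.3, genes past filterByExpr (minimum count 10, minimum total 15) were TMM-scaled and tested with edgeR 4.0.16's robust quasi-likelihood test, two-sided, with Benjamini-Hochberg adjustment over all genes tested (FDR) and a threshold of 0.05. Treatment was fitted in each region alone. Regions, and treatment effects between regions, were fitted jointly over the 59 libraries. Fold changes are log2 values with SE. Alternatives used DESeq2 1.42.0, limma 3.58.1 (voom with quality weights), RLE factors, library totals alone, no filter or a filter of 20 counts in 9 libraries, covariates for log10 total and for marker scores, and omitted libraries. Likeness was Pearson r of log2 CPM (prior count 2) minus the mean of each of 6 groups, over 11709 genes averaging 5 CPM or more.

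The 10 genes and the gene lists were chosen with earlier results of these data known. All 10 were named throughout, with the 3 genes most like each, up to 2 members of each list with the smallest p in a region and up to 4 that passed. Promoter sequences are RefSeq's for GRCm38.p6, and the fits were checked on simulated data. Protein sequences were not used here.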

Additional observations from a re-analysis of the deposited data

Results flagged for a closer look

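Each of the 10 KLF genes was searched in each of the 6 groups for a library far from the rest, by the gap to its nearest neighbour over the group's range. Of 60 such sets, 6 had one, where chance gives about 1 in 20. Library 1 of the treated PVN group was low for Klf9, at 53.8 CPM against 75.9 to 102 CPM in the other 9, and for Klf13, at 56.3 CPM against 68.0 to 82.2 CPM. Library 1 of the treated NTS group was low for Klf15, at 27.2 CPM against 42.9 to 56.9 CPM, and for Klf4, at 1.89 CPM against 3.63 to 6.79 CPM. Library 1 of the vehicle ARC group was high for Klf13, at 77.5 CPM against 44.5 to 58.3 CPM in the other 8. The remaining one was library 8 of the treated PVN group, low for Klf6 at 32 CPM against 38.9 to 45.4 CPM.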

How the results depend on the processing

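No paired analysis was possible because the labels tie no library to an animal, and the libraries are numbered only in the order of deposition. Depth limits Klf4 most, with 6 counts in its lowest library, and scaling by library totals moved the median of all genes by -0.03 to 0.03 on the log2 scale across the groups.

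Between regions, the number of KLF genes called in vehicle libraries ran from 6 to 7 (PVN and ARC), 6 to 9 (PVN and NTS) and 6 to 7 (ARC and NTS) over the alternatives, and in treated libraries from 5 to 6, 8 to 9 and 7 to 8. For treatment, where edgeR called 0, DESeq2 called 2 KLF genes in PVN, 4 in ARC and 1 in NTS, while limma-voom called 4 in PVN and 1 in NTS. Leaving out the libraries numbered 1 gave 4, 5 and 3, and 1 for the difference of the effects in PVN and ARC and 1 for that in ARC and NTS. With either pair of marker covariates 1 was called in NTS. Leaving out 1 library at a time gave 0 to 3 in PVN, 0 to 4 in ARC and 0 to 2 in NTS, above 0 only without a library numbered 1. Shares of all genes called are not given for the fits without 1 library, those with covariates or the ranges between regions. A general change in calls cannot be told apart there. Every other alternative called 0 for treatment. Apart from fewer libraries, the cause was not tested.

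Signs turned only in values that passed under no alternative, and the cause was not tested. Klf10 in PVN turned to -0.048 without the libraries numbered 1, -0.024 without those titled 5553 to 5557 and -0.014 without those of low total (-0.026 to 0.119 leaving out 1 library). Klf10 in NTS turned to -0.003 with library totals alone, -0.003 with oligodendrocyte and endothelial and -0.013 with neuron and astrocyte covariates (-0.044 to 0.046). Klf16 turned to -0.001 in PVN by limma-voom, and ran from -0.083 to 0.006 in NTS leaving out 1 library. Klf2 in ARC turned to -0.085 by limma-voom, -0.008 with the total as covariate, -0.10 with oligodendrocyte and endothelial and -0.014 with neuron and astrocyte covariates, and -0.021 without libraries of low total (-0.045 to 0.079), and Klf4 in ARC ran from -0.19 to 0.041. Between regions in vehicle libraries, Klf16 in PVN over ARC turned to -0.027 with library totals alone and -0.003 without the libraries numbered 1. Klf13 in PVN over NTS turned to 0.006 with no filter, 0.009 with the stricter one, 0.011 without the libraries numbered 1, 0.113 without those titled 5553 to 5557 and 0.029 without those of low total. For the effect in PVN against that in NTS, Klf6 turned to -0.006 without the libraries numbered 1 and -0.039 without those titled 5553 to 5557, and Klf10 to -0.06, -0.042 and, without libraries of low total, -0.028. Of the 30 genes most like a KLF gene, 15 kept a place among the first 3 by Spearman's rho and 10 without the libraries numbered 1.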

Other observations

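Other members of the KLF and SP families were tested in the same fits. Klf5, known from epithelial and vascular growth, had 1.41, 3.56 and 4.89 CPM (lowest, median, highest) in treated PVN libraries, 5.4, 9.44 and 11.4 CPM in treated ARC libraries and 0.0857, 0.586 and 0.987 CPM in treated NTS libraries. It had 1.69, 2.03 and 3.19 CPM in vehicle PVN libraries, 6.36, 7.75 and 13.6 CPM in vehicle ARC libraries, and 0, 0.55 and 1.23 CPM in vehicle NTS libraries. The log2 fold change of vehicle PVN over vehicle ARC was -2.06 ± 0.22 (FDR = 1.98e-12, edgeR). Klf14, an intronless relative of Klf16, had 1.28, 2.65 and 3.35 CPM in treated ARC libraries, and 1.72, 2.79 and 5.79 CPM in vehicle ARC libraries. In NTS it had no count in 6 of 10 treated and 8 of 10 vehicle libraries, so no fold change is given. Klf11 was higher in vehicle ARC than in vehicle NTS by 0.67 ± 0.11 on the log2 scale (FDR = 1.65e-07). For treatment, 0 of the tested members of these families were called in any region with all libraries. The smallest p was that of Klf5 in PVN, with 3.60 ± 1.03 CPM in treated and 2.14 ± 0.42 CPM in vehicle libraries (SD, n = 10 each, FDR = 0.0878). Without the libraries numbered 1, Klf5 was called higher in PVN, and 0 others in any region.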
